A study of Mus musculus with 13 samples.

Results

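The mouse heart ventricle was compared before and after weaning, at postnatal day 10 (PN10) and postnatal day 28 (PN28). These are 2 of the 13 libraries of the series, 1 at each age, chosen by their labelled tissue and age. The 3 other ventricle libraries, from embryonic day 17 (E17), PN1 and PN90, served as context. A further 8 libraries came from isolated heart cells, 4 from cardiomyocytes and 4 from cardiac fibroblasts, of neonates and of later ages. All groups were wild type mice of the FvB strain, with no transgene and no treatment, and the atria had been cut away before every preparation. Ventricle RNA was extracted with a Qiagen RNeasy kit, cleared of ribosomal RNA by Ribo-Zero and made into ScriptSeq libraries. The cell libraries were made by a different method, TruSeq. Cardiomyocytes of PN30 and PN67 came from perfused hearts, and neonatal cardiomyocytes and all fibroblasts from a preplating step that separates cells by how fast they attach. The labels give neither the sex of the animals nor whether a library is 1 animal or a pool.

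During the first weeks after birth the heart muscle cells of a mouse stop dividing and go on growing by enlargement. Their contractile proteins pass from fetal to adult forms, and their energy supply moves from glucose and lactate to the oxidation of fat. Pups live on fat-rich milk until weaning, when a diet rich in carbohydrate replaces it. The comparison of PN10 with PN28 spans the last part of this change.

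Levels are given as FPKM, a count of fragments scaled to transcript length and to the library's mapped fragments, summed over a gene's transcripts of at least 200 nucleotides and brought to a common scale over the 5 ventricle libraries. A change is the PN28 minus the PN10 value of log2(FPKM + 1), which understates the change of low genes. A gene was called higher or lower when this change reached 1 and the 95% bounds deposited by the authors did not overlap. With 1 library at each age there is no replicate check and no p-value: the bounds describe the estimate within a library, and animals of 1 age may differ by as much. The 2 neonatal libraries of each cell type allow the rule to be applied between libraries of similar age. Their labelled ages overlap but are not the same, and pooling is not labelled. They therefore do not measure the spread between animals. By the same rule 34 of 12099 genes (0.281%) were called between the neonatal cardiomyocyte libraries and 52 (0.43%) between the neonatal fibroblast libraries, which were however made by the other method and from cells.

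Heart muscle markers were high at both ages. Myl3, the ventricular essential light chain, stood at 4824 FPKM at PN10 and 5938 at PN28. Tnnt2, cardiac troponin T, stood at 5140 and 7249, and Actn2, the Z-disc actinin, at 653 and 587. None of these was called. Tnni3, adult cardiac troponin I, measured 4989 and 9484 (change 0.93) and was not called either. Markers of other resident cells were present at both ages: Pdgfra of fibroblasts (25.8 and 25.6), Pecam1 of endothelium (97.1 and 62.6) and Rgs5 of pericytes (340 and 318). The T cell and B cell genes Cd3e and Cd79a were at or below 0.102 FPKM at both. A set of 64 genes whose estimates the deposited tables mark as failed or too deep, among them Myh6, Myh7, Myl2, Pln and Atp2a2, was not compared here. In tissue such as this, fewer cells of a type and less RNA per cell cannot be told apart.

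Between PN10 and PN28, 682 of 11634 genes (5.86%) were called, 374 higher (3.21%) and 308 lower (2.65%) at PN28. Protein-coding genes made up 648 of them. The interval before it, PN1 to PN10, gave 748 calls (6.43%), and E17 to PN1 gave 434 (3.73%). The interval after it, PN28 to PN90, gave 108 (0.928%). The scaling sets the median change of all genes near 0 (-0.01), so each change is relative to the middle of all genes. When libraries were instead brought to equal sums of gene FPKM, the median of all genes moved to -0.26 and higher genes were 26.3% of those called, against 54.8%. Just inside the threshold lay Epha4, Csf1r and Ppip5k1 (each 1.00) and Igsf10 (-1.002), and just outside it Ptgr2 (0.9997) and Srrm1 (-0.9993).

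**Figure D1:**
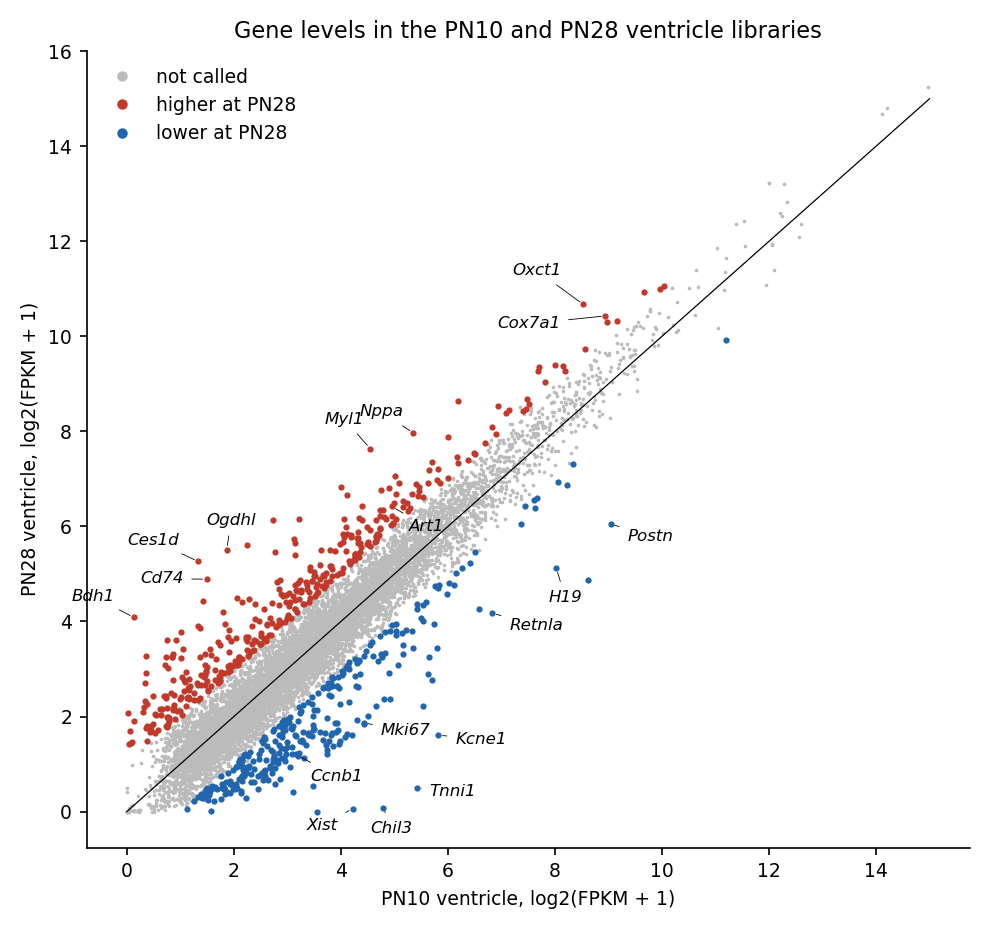
Each point is 1 of the 11634 genes compared, with its level in the PN10 library on the x axis and in the PN28 library on the y axis, both as log2(FPKM + 1), and a line where both are equal. Red marks the 374 genes called higher and blue the 308 called lower at PN28, with genes such as Myl1, Oxct1 and Bdh1 above the line and Tnni1, Kcne1, Postn and Mki67 below it.

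The largest single rise was that of Bdh1, the mitochondrial enzyme that interconverts the ketone bodies, from 0.0949 to 15.98 FPKM. The largest fall was that of Tnni1, the slow skeletal and fetal troponin I, from 41.9 to 0.418 FPKM. Genes of cell division and histones made up the largest group of falls, followed by genes of the extracellular matrix. Among the rises were genes of ketone use, Z-disc and light chain proteins, macrophage and antigen presentation genes, complement, and genes best known from the atrium. Of the 682 called genes, 232 belonged to at least 1 of the 45 lists of genes described below.

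Genes of mitosis formed the list with the most called members, all of them lower at PN28. These genes are switched on late in the cell cycle and build the spindle, separate the chromosomes and split the cell, so that their RNA is found where cells divide. Of 75 compared, 48 were called lower at PN28 and none higher, with a median change of -1.31 against -0.01 for all genes. Added together, their levels were 2264 FPKM at E17, 1179 at PN1, 399.1 at PN10, 109.2 at PN28 and 108.6 at PN90. The sum was thus already lower at PN10 than in the newborn, and the PN28 and PN90 libraries were alike. With equal sums 54 were called lower.

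The promoters of 4 of these genes are printed because all 4 hold the short sequences known as the CHR (cell cycle genes homology region) and the CCAAT box, which are textbook features of genes expressed in late cell cycle. Each runs 5′ to 3′ on the gene's strand from 250 bases before to 50 after the RefSeq start, on build GRCm38.p6. Capitals mark each match to the CHR (TTTGAA or TTTAAA) or to CCAAT on either strand. Ccnb1 lies at chr13:100786437-100786736, Cdk1 at chr10:69352863-69353162, Mki67 at chr7:135716330-135716629 and Top2a at chr11:99024140-99024439, all on the minus strand.
Ccnb1: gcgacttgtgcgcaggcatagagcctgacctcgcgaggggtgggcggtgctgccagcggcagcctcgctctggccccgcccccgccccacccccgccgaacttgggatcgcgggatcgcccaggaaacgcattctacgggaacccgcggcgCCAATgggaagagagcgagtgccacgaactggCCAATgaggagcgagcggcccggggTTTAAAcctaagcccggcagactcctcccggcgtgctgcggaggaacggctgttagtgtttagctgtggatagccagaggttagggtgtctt
Cdk1: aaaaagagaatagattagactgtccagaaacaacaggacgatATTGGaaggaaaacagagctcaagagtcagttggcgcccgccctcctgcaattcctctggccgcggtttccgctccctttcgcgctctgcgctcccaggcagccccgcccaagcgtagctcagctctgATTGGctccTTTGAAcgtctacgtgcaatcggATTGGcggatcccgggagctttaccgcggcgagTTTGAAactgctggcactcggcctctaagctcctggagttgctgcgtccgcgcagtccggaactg
Mki67: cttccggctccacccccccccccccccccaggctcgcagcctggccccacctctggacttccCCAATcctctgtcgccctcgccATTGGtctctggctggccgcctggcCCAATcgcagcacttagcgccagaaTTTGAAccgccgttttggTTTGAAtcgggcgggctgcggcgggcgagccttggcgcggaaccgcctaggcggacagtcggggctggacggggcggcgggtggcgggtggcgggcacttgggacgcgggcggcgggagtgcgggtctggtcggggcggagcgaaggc
Top2a: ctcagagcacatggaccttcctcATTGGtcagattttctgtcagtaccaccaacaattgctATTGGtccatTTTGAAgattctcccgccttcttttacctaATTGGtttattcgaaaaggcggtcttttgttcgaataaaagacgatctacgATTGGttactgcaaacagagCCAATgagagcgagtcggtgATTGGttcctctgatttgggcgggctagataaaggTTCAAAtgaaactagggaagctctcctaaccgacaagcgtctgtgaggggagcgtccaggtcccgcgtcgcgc
The CHR match nearest the start began 42 bases before it in Ccnb1, 15 in Cdk1, 98 in Mki67 and 23 in Top2a. RefSeq promoters were found for 62 of the 75 mitosis genes, 65 promoters in all. A CHR match was in 48 of them (73.9%), against 27.6% of all 32851 promoters of the same length. CCAAT was in 46 (70.8%), against 37.4%, and both were in 39 (60%), against 10.7%; the letters of one motif do not hold the other. The promoters of DNA replication genes differed in this respect: 28.9% of 45 held a CHR match, while 24.4% held an E2F match (TTTCCCGC or TTTGGCGC), against 1.57% of all promoters and 9.23% of those of mitosis genes. A match is a description of letters in a window, not a site or a cause, and the values below do not depend on it.

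Ccnb1 encodes cyclin B1, the partner that drives Cdk1 into mitosis. Its level was 95.3 FPKM at E17, 38.2 at PN1, 8.13 at PN10, 1.27 at PN28 and 0.73 at PN90, and it fell by 2.01 from PN10 to PN28. The bounds were 6.83 to 9.37 at PN10 and 0.833 to 1.802 at PN28. Every library was lower than the one before it. Mki67, the Ki-67 protein that coats mitotic chromosomes, measured 62.5, 37.6, 20.6, 2.65 and 2.53 FPKM at the same 5 stages and fell by 2.56. As a ratio its largest drop lay between PN10 and PN28, and the PN28 and PN90 libraries were close.

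Top2a, the topoisomerase that untangles sister chromosomes, went from 18.8 to 2.79 FPKM (change -2.39), after 138 at E17. Cdk1, the mitotic kinase, went from 12.8 to 1.81 (change -2.29). Cks2, a small subunit of that kinase, gave the largest fall of the list, from 17.4 to 2.08 (change -2.58). The PN10 level was 6.42 times the PN28 level for the cyclin, 7.05 times for its kinase and 8.38 times for the kinase's small subunit. Others of the 48 were Prc1 of the midbody (-2.18), Birc5 (survivin, -2.17), Spc25 of the kinetochore (-2.11) and cyclin A2, Ccna2 (-1.96).

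Fewer DNA replication genes were called. Of 43 compared, 12 were called lower and none higher, with a median of -0.72 and 40 below 0. With a pseudocount of 0.1 in place of 1, which lets low genes move further, 25 of them were called lower. Mcm6, a subunit of the replicative helicase, went from 10.2 to 2.27 FPKM (change -1.77), and Clspn, the checkpoint adaptor claspin, from 3.40 to 0.36 (-1.70). Lig1, the ligase that joins Okazaki fragments, gave -1.49, Mcm2 gave -1.48 and Uhrf1, which passes DNA methylation to the new strand, gave -1.28.

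Replication-dependent histone genes, which supply the chromatin of newly copied DNA and whose messages end in a stem-loop without a poly(A) tail, form a separate list. The ventricle libraries were depleted of ribosomal RNA rather than selected by poly(A). Of 56 compared, 31 were called lower and 1 higher (median -1.41). Their sum went from 4215 FPKM at E17 to 1381 at PN10 and 487.5 at PN28. Hist1h2bb went from 391 to 28.2 FPKM (change -3.75), and Hist1h1b, a linker histone, from 45.2 to 3.64 (-3.32). The exception was Hist1h2bc, from 29.9 to 73.8 (change 1.28), which was no longer called with equal sums. Histone genes of a cluster are nearly identical in sequence, so the counting could divide their fragments in more than 1 way.

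Genes that govern entry into the cycle form a list of their own. Of 23 G1 cyclins, cyclin-dependent kinase partners and inhibitors, 2 were called (8.7%, against 5.86% of all genes), both lower: Ccnd2, cyclin D2, from 25.7 to 11.9 FPKM (change -1.05), and Rbl1, the p107 pocket protein (-1.04). Ccnd1 measured 13.2 and 11.3 FPKM and Ccnd3 9.97 and 7.59, neither of them called. Lmnb1, lamin B1 of the nuclear envelope, went from 14.8 to 3.80 (change -1.72) and was the only called member among 28 genes listed for the intercalated disc and nuclear lamina.

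**Figure D2:**
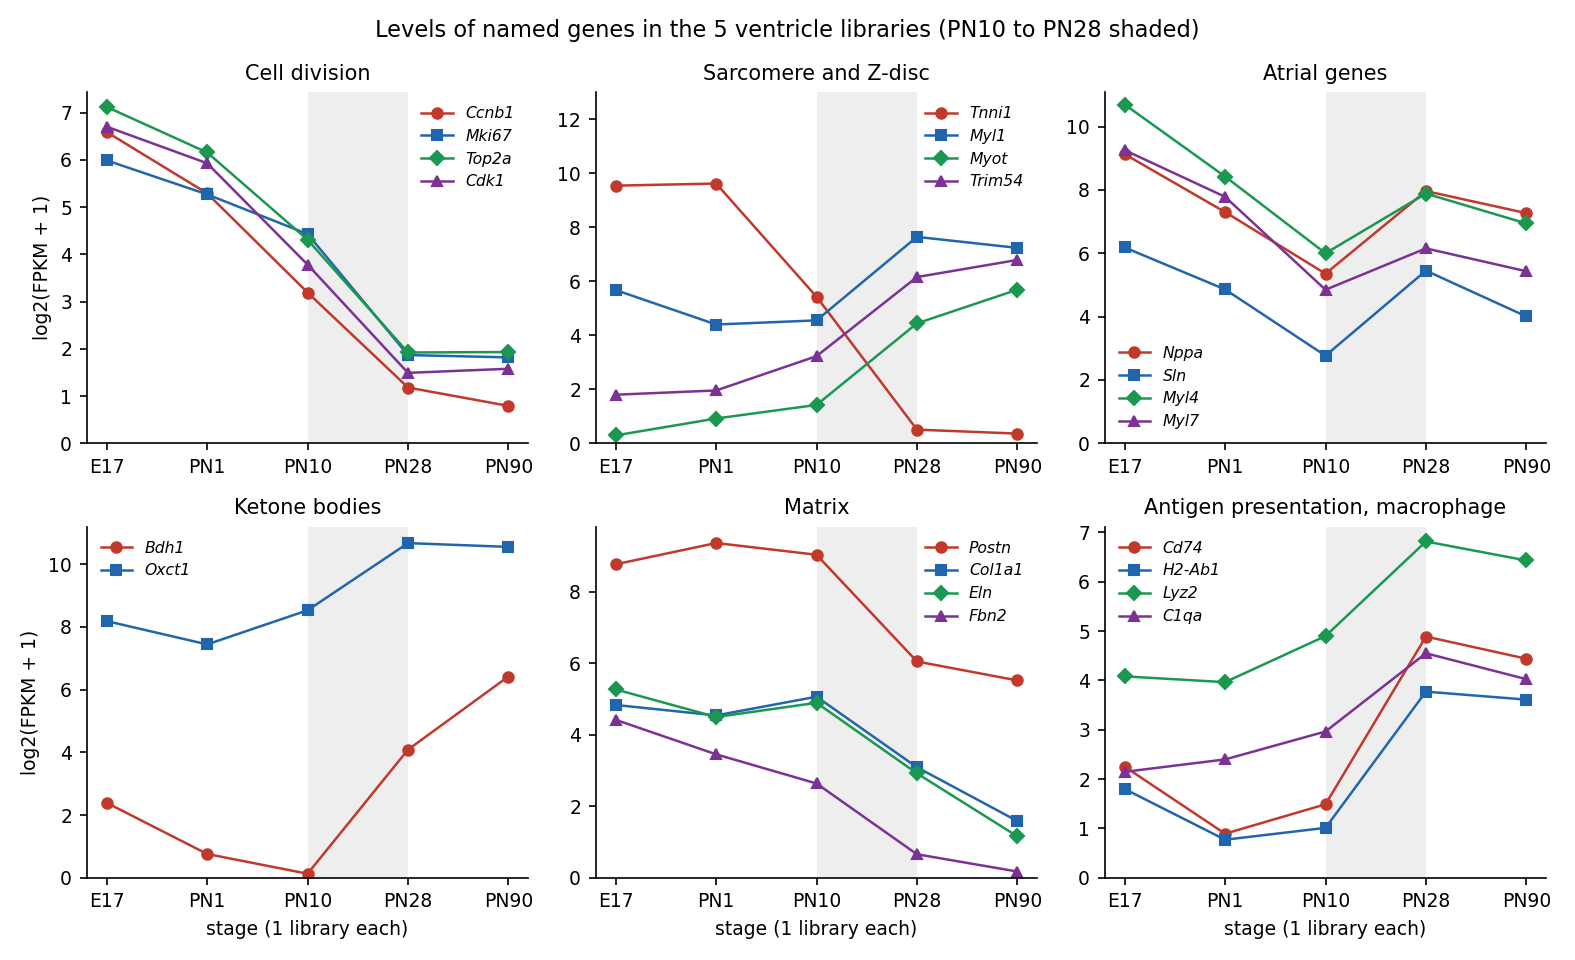
Levels of 22 named genes in the 5 ventricle libraries, as log2(FPKM + 1) on the y axis and stage on the x axis, in 6 panels by function, with the interval PN10 to PN28 shaded and 1 library per point. Division genes fall through the shaded interval to a level close to that of PN90, Tnni1 crosses Myl1, the 4 atrial genes plotted have their lowest point at PN10, and Bdh1 and Oxct1 stand higher at PN28 than at PN10.

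Contractile genes divided into a fetal form that was lost and a few proteins that were gained. Of 50 sarcomere and Z-disc genes, 10 were called higher and 2 lower (median 0.37; 0.07 with equal sums, with 8 higher and 4 lower). Tnni1 (chr1:137679642-137707566 in mm9, the build of the deposited tables) measured 740 FPKM at E17, 782 at PN1, 41.9 at PN10, 0.418 at PN28 and 0.281 at PN90, a change of -4.92. Its bounds were 38.4 to 45.7 at PN10 and 0.0853 to 0.926 at PN28, so that the 2 older libraries stood near 0. Tnni3, the form that takes its place, was higher in each library than in the one before, from 2142 at E17 to 10637 FPKM at PN90, without being called in this interval.

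Myl1 encodes an essential light chain of fast skeletal and embryonic muscle myosin. It measured 49.9, 20.03, 22.4, 198.2 and 149.2 FPKM from E17 to PN90 and rose 8.85-fold from PN10 to PN28 (change 3.09), with bounds of 15.1 to 23.0 and 142.5 to 199.5. Both older libraries lay above the 3 younger ones. Myot, the Z-disc protein myotilin, measured 0.224, 0.887, 1.67, 20.7 and 50.4 FPKM (change 3.02), higher in each library than in the one before. Trim54, a muscle ubiquitin ligase of the MURF family, went from 8.34 to 70.1 (change 2.93; 2.64 with all its transcripts).

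Further Z-disc and stretch-linked genes were higher at PN28. Xirp2, which binds actin at the intercalated disc, went from 51.1 to 163 FPKM (change 1.66). Ankrd23 (1.56) and Ankrd1 (1.34), ankyrin repeat proteins that bind titin, and Csrp3, the muscle LIM protein (1.01), were also called. The other called fall was Actn1, the non-muscle actinin, from 13.3 to 6.06 (change -1.02). Lmcd1, a LIM protein of muscle, read 0.683 and 11.3 FPKM (change 2.87), but with all transcripts counted the values were 11.8 and 38.7 (change 1.63).

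Fast skeletal muscle genes were 11 in number among those compared, of which 4 were called higher and none lower (median 0.86). Besides Myl1 these were Mybpc2, the fast myosin-binding protein C (1.75; 1.301 with all transcripts), Casq1, the skeletal calsequestrin, and Tnni2, the fast troponin I. Casq1 measured 15.4 FPKM at PN10, 50.2 at PN28 and 14.98 at PN90 (change 1.64). Tnni2 measured 2.74, 9.20 and 2.03 (change 1.45). Of these 3 libraries PN28 alone was high for Tnni2, and for the matched transcripts of Casq1. Defining genes of skeletal muscle fibres stayed low: Mylpf at 0.652 and 0.833 FPKM, Tnnt3 at 0.433 and 0.570, Actn3 at 0.0368 and 0.0110, and Myh4 at or near 0 at both ages. Whether skeletal muscle on the sample moved Casq1 and Tnni2 was not tested.

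Art1 encodes a mono-ADP-ribosyltransferase anchored on the surface of striated muscle cells. It measured 0.622, 1.76, 30, 84.6 and 89.95 FPKM from E17 to PN90 and rose by 1.47 from PN10 to PN28, with bounds of 28.9 to 31.4 and 83.5 to 87.7. Each library was higher than the one before it. Its relative Art3 went from 112 to 271 (change 1.27). In a list of 28 energy regulators 5 genes were called higher and none lower (median 0.62; 3 higher with equal sums). They include Nampt, the enzyme that salvages nicotinamide for NAD, from 19.2 to 71.2 FPKM (1.84), Ckmt2, the mitochondrial creatine kinase, from 809 to 1944 (1.26), and Nmnat3, an NAD-making enzyme of mitochondria (1.25), whose call was lost with all transcripts (0.61).

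Genes best known from the atrium were often called higher at PN28. Of 14 compared, 8 were called higher at PN28 and none lower (median 1.23). Their summed level was 3235 FPKM at E17, 876.4 at PN1, 325.6 at PN10, 1138 at PN28 and 1616 at PN90. Most of the PN90 sum was Nppb (1038 FPKM), while Nppa, Myl4, Sln and Myl7 were lower at PN90 than at PN28. Nppa, the atrial natriuretic peptide, measured 559, 157, 39.9, 248.9 and 153 FPKM from E17 to PN90 (change 2.61). Myl4, the atrial essential light chain, measured 1660, 343, 63.0, 236 and 122 (change 1.89). For both, E17 was highest and PN10 lowest.

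Sln, sarcolipin, the atrial brake on the sarcoplasmic calcium pump, went from 5.80 to 42.8 FPKM (change 2.69), and Myl7, the atrial regulatory light chain, from 27.8 to 70.3 (1.31). Nppb, the B-type natriuretic peptide, went another way, from 214 FPKM at E17 to 53.0 at PN1, 121 at PN10, 370 at PN28 and 1038 at PN90 (change 1.61). The remaining called members were Clu, clusterin (26.0 to 109, change 2.02), Kcnj3, an atrial potassium channel subunit (1.58), and Stard10 (1.15). Tbx5, a transcription factor of atria and left ventricle, measured 4.56 and 4.51 FPKM and was not called. How much atrial tissue was left on each ventricle was not measured other than by these genes, and its part in their change was not tested.

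Among ion channel genes, accessory subunits of different channels gave the largest changes in each direction. Of 29 channel and gap junction genes, 6 were called higher and 1 lower (median 0.26, which turned to -0.03 with equal sums, with 4 higher and 2 lower). Kcne1, the subunit that slows the delayed rectifier KCNQ1, measured 41.0, 91.4, 55.6, 2.05 and 0.782 FPKM from E17 to PN90 (change -4.22). Scn4b, a beta subunit of the cardiac sodium channel, measured 0.220, 0.464, 0.903, 11.2 and 13.2 (change 2.68). One was thus high in the 3 younger libraries and the other in the 2 older ones. Kcnv2, a silent potassium channel subunit (1.78), Scn4a, the skeletal muscle sodium channel (1.45), and Slc4a3, an anion exchanger (1.09), were among the others called.

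Among 33 genes of calcium handling 3 were called higher and 1 lower (12.1%, against 5.86% of all genes, with a median of 0.23, or -0.07 with equal sums). Apart from Sln, these were S100a1, a calcium sensor of the sarcoplasmic reticulum, from 206 to 619 FPKM (change 1.59), and Hrc, a calcium-binding protein of its lumen, from 135 to 332 (1.29). The lower gene was Cacna1g, a T-type calcium channel of immature myocytes and pacemaker cells, from 7.99 to 2.03 (-1.57). In the adrenergic list 1 of 21 was called (4.76%): Adra1a, the alpha-1A receptor, from 0.532 to 3.47 (1.55).

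The enzymes of ketone body use were higher at PN28. The liver makes ketone bodies from fat, and the heart burns them through Bdh1 and Oxct1. Bdh1 (chr16:31422366-31458987, mm9) measured 4.25, 0.694, 0.0949, 15.98 and 84.5 FPKM from E17 to PN90, a change of 3.96, with bounds of 0.0552 to 0.263 at PN10 and 12.8 to 17.2 at PN28. Oxct1, the enzyme that activates acetoacetate, measured 290, 173, 368, 1630 and 1500 FPKM (change 2.14). For both, the 2 older libraries were above the 3 younger ones. They were the 2 genes called higher in a list of 7, whose summed level went from 697 to 2021 FPKM, most of it Oxct1.

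Genes known as targets of the fatty acid receptor PPARA included 6 called lower and none called higher among 18 (median -0.05; 8 lower with equal sums). Among them Angptl4, a secreted inhibitor of lipoprotein lipase, went from 24.3 to 3.65 FPKM (change -2.44). Ucp2 and Ucp3, uncoupling proteins, went from 34.8 to 10.3 (-1.66) and from 39.1 to 12.96 (-1.52). Cpt1a, the liver form of the carnitine transferase, went from 16.8 to 7.02 (-1.15), and Pdk4, the kinase that turns off pyruvate dehydrogenase, from 264 to 121 (-1.12). In contrast Cpt1b, the muscle form of the transferase, measured 181 and 191 and was not called.

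Fatty acid oxidation as a list stood at a median of 0.30, which turned to -0.01 with equal sums. Of 35 genes 3 were called higher and 1, Cpt1a, lower (11.4%, against 5.86% of all genes). Acad11, an acyl-CoA dehydrogenase, went from 10.3 to 32.2 FPKM (change 1.56) and Echs1, a hydratase of the cycle, from 88.9 to 185 (1.05). Lpl, the lipase that frees fatty acids at the vessel wall, read 5.60 and 69.3 FPKM (3.41) from the transcripts that could be matched to the gene. Most of its signal lies in transcripts that could not, and with them it measured 268 and 998 (change 1.89).

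In lipogenesis, 3 of 19 were called higher and 2 lower (median 0.00; 1 higher and 2 lower with equal sums). Thrsp, the Spot 14 regulator of lipid synthesis, measured 0.826, 3.69, 7.73, 52.5 and 29.6 FPKM from E17 to PN90 (change 2.61). Dgat2, which completes triglycerides, gave 1.29. The desaturases divided, with Scd1 at 1.15, Scd2 at -1.05 and Scd4 at -1.86. None of 19 genes of cholesterol synthesis was called. Ces1d, a triglyceride hydrolase, measured 0.0811, 0.239, 1.52, 37.4 and 56.1 (change 3.93). Fat cell markers were mixed. Adipoq, adiponectin, was at 0 at PN10 and read 1.04 FPKM at PN28 and 2.42 at PN90. Ucp1 read 0.0931 FPKM at PN10 and 0.0068 at PN28. Of 5 adipocyte genes high enough to compare 1 was called, Car3, from 0.439 to 3.15 (1.53). The median of the 5 was 0.08, and their summed level was 1604 FPKM at PN10 and 1438 at PN28. The part of fat cells in the lipid genes was not tested.

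In the lists of oxidative phosphorylation, mitochondrial ribosome and tricarboxylic acid cycle nearly all genes lay above 0, most of them short of the threshold. Of 74 nuclear genes of oxidative phosphorylation 3 were called higher and none lower (4.05%, against 5.86% of all genes). Yet 72 lay above 0 (median 0.55, or 0.24 with equal sums, with 1 called). Their sum was 26476 FPKM at E17, 43021 at PN1, 48383 at PN10, 66618 at PN28 and 76708 at PN90. Among 77 mitochondrial ribosomal proteins 76 lay above 0 (median 0.49, or 0.19 with equal sums). Only 1 was called (1.3%), Mrps25 (1.25), and none with equal sums. Of 25 genes of the tricarboxylic acid cycle 24 lay above 0 (median 0.48, or 0.19 with equal sums). Only 1 was called (4%), Got1, the aspartate aminotransferase of the malate shuttle, from 140 to 350 FPKM (1.32). Ogdhl, a relative of the cycle enzyme oxoglutarate dehydrogenase, measured 3.08, 2.49, 2.66, 44.7 and 22.3 (change 3.64).

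Cytochrome oxidase has heart and muscle forms of some subunits beside the common ones. Cox7a1, a muscle form, measured 143, 280, 490, 1378 and 1635 FPKM from E17 to PN90 (change 1.49). Its common counterpart Cox7a2 measured 171 at PN10 and 225 at PN28, not called. Cox6a2 went from 993 to 2037 (1.04) against 41.4 and 43.6 for Cox6a1, and Cox8b read 453 and 815 (0.85, not called) against 161 and 161 for Cox8a. In each pair the muscle form differed more between the ages than the common form.

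Glucose genes also stood above 0, with a median of 0.53 over 36 genes (0.23 with equal sums), 5 called higher and 1, Pdk4, lower. With equal sums 2 were called higher. Pfkfb1 (1.33) and Pfkfb2 (1.296) make the activator of glycolysis, Ldhb is the heart lactate dehydrogenase (282 to 660 FPKM, 1.22), Pdp2 turns pyruvate dehydrogenase on (1.16), and Hk2 is the insulin-responsive hexokinase (36.9 to 79.3, 1.08). The muscle glucose carrier Slc2a4 measured 203 and 338 (0.73) and the fetal one, Slc2a1, 1.102 and 2.31 (0.66), neither called. Pdk1 and Pdk2, the relatives of Pdk4, gave 0.66 and 0.47, not called, opposite in sign to Pdk4.

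**Figure D3:**
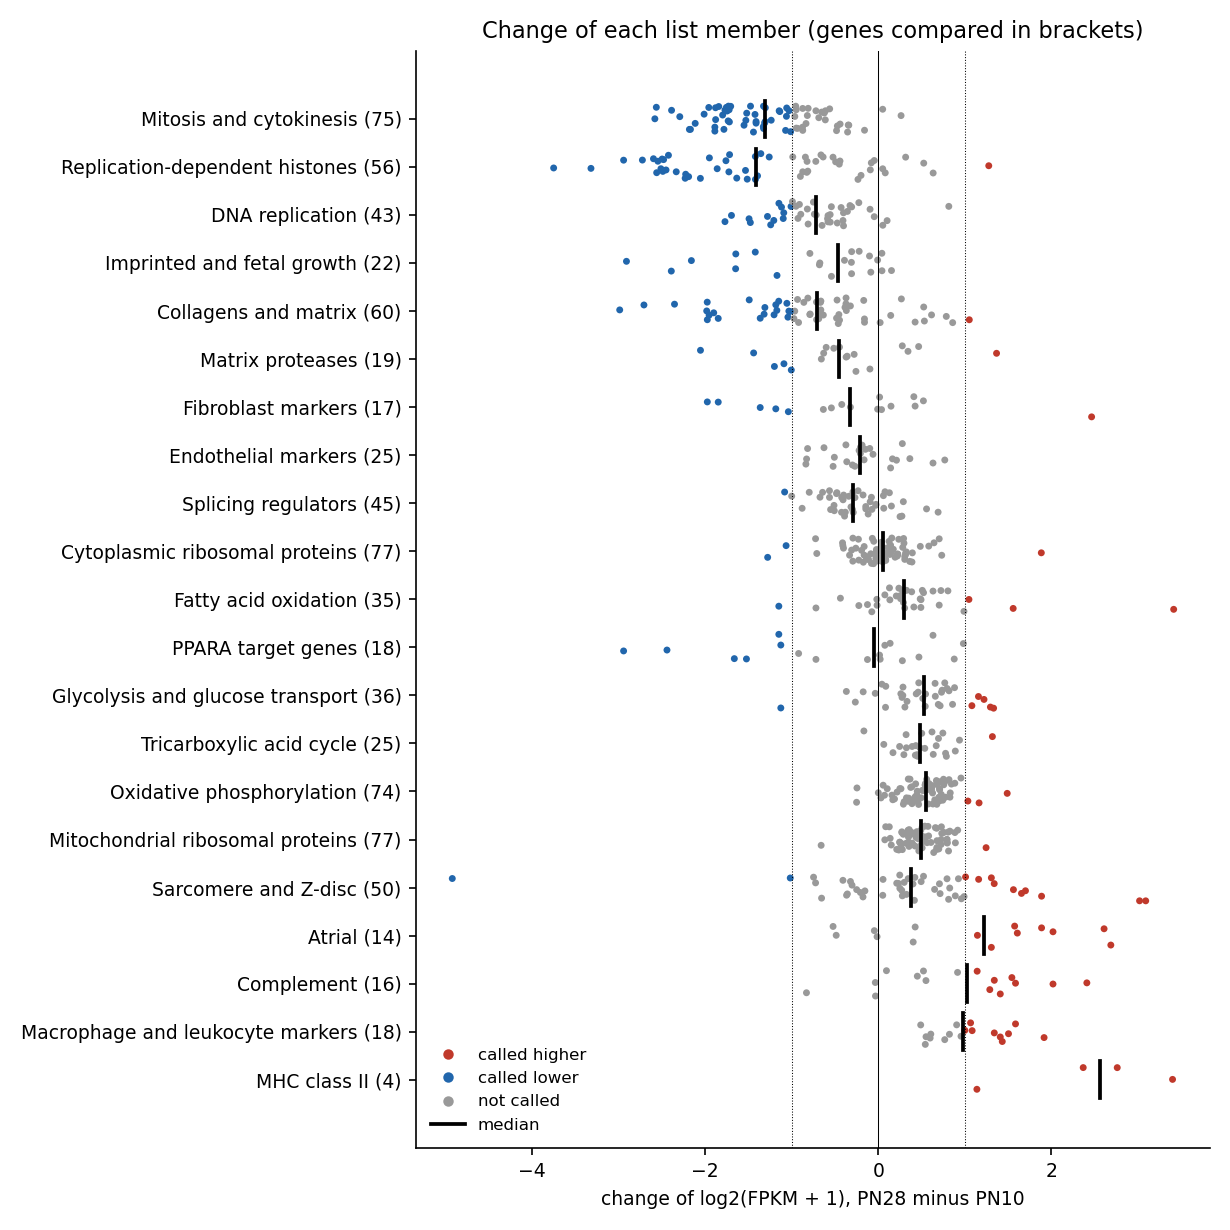
Each point is a gene of the list named at the left, placed on the x axis by its change in log2(FPKM + 1) from PN10 to PN28, with red for called higher, blue for called lower, grey for not called, a black bar for the list's median and dotted lines at the threshold. Mitosis and histone genes lie mostly left of -1, while oxidative phosphorylation genes crowd between 0 and 1 and the 4 class II genes lie right of 1.

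Extracellular matrix genes were the second large group of falls. Of 60 collagens and matrix genes 21 were called lower and 1 higher (median -0.71; 29 lower and none higher with equal sums). Their summed level was 2760 FPKM at E17, 3085 at PN1, 4305 at PN10, 2646 at PN28 and 1796 at PN90, so PN10 was the highest of the 5 libraries. Postn, periostin, a matrix protein of activated fibroblasts and growing valves, measured 436, 660, 525, 65.4 and 45.0 FPKM (change -2.99). The 3 younger libraries were high and the 2 older ones low.

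Col1a1, a chain of type I collagen, measured 27.6, 22.3, 32.5, 7.54 and 2.01 FPKM (change -1.97), and Col3a1, of type III, went from 300 to 116 (-1.36). Among the other called members were Eln, elastin, from 28.8 to 6.58 (-1.98), Fbn2, fetal fibrillin, from 5.23 to 0.579 (-1.98), and Mfap4 from 34.9 to 8.98 (-1.85). Col18a1 of basement membranes gave -2.35, tenascin C, Tnc, gave -1.49 and the cross-linking enzyme Lox gave -1.32. Fn1, fibronectin, gave -2.71 from its matched transcripts and -2.51 with all of them. The single rise was P4ha2, a collagen prolyl hydroxylase (1.05).

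Matrix proteases and their inhibitors included 5 called lower and 1 higher among 19 (median -0.45). Mmp16 and Mmp14, membrane-bound matrix metalloproteases, gave -2.05 and -1.44, and Timp4, the cardiac inhibitor, went from 0.398 to 2.61 FPKM (1.37). Of 17 fibroblast markers 5 were called lower and 1 higher (median -0.32), but 4 of the 5 are matrix genes counted above. The other was Tcf21, a transcription factor of cardiac fibroblasts, from 22.2 to 10.3 (-1.04). The higher gene was Gsn, gelsolin, from 71.5 to 399 (2.46). Pdgfra measured 25.8 and 25.6, and Dpt, dermatopontin, measured 168 and 115 FPKM (-0.54, not called). The endothelial list (25 genes, median -0.21) and the smooth muscle and pericyte list (15 genes, median -0.10) held no called gene.

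Macrophage genes were higher at PN28. Of 18 macrophage and leukocyte markers compared, 9 were called higher and none lower, and all 18 lay above 0 (median 0.98; 6 called with equal sums). Their summed level was 65.7 FPKM at E17, 64.2 at PN1, 103.6 at PN10, 284 at PN28 and 217.4 at PN90. Lyz2, the lysozyme of macrophages, measured 15.96, 14.6, 28.9, 112 and 85.4 FPKM (change 1.92). C1qa, a chain of complement C1q made by resident macrophages, measured 3.43, 4.28, 6.81, 22.5 and 15.3 (1.59). Both older libraries were above all younger ones for each. Cd163, a scavenger receptor (1.505), F13a1 (1.43) and Csf1r, the growth factor receptor of macrophages (1.00), were also called.

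All 4 class II antigen presentation genes compared were called higher (median 2.57; 3 with equal sums). Cd74, the invariant chain, measured 3.77, 0.859, 1.81, 28.7 and 20.7 FPKM from E17 to PN90 (change 3.40). H2-Ab1, a chain of the class II molecule, measured 2.48, 0.708, 1.02, 12.7 and 11.2 (2.76), and H2-Aa, its partner, went from 0.269 to 5.55 (2.37). H2-DMa, which loads the peptide, gave 1.14. In the class I and interferon list 2 of 21 were called (9.52%, against 5.86% of all genes), Ifi27l2a (2.37) and Iigp1 (2.01), both higher. The pan-leukocyte gene Ptprc read 0.393 and 0.705 FPKM, too low to be compared.

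Complement genes were called higher in 8 of 16 cases and lower in none (median 1.03; 6 higher and 1 lower with equal sums). Besides the C1q chains and Clu these included C7, of the membrane attack complex, from 0.790 to 8.51 FPKM (2.41), C3, the central component, from 4.51 to 15.1 (1.54), and the inhibitor Serping1 (1.14). Another pair of immune genes went the opposite way. Chil3 and Retnla, secreted proteins of alternatively activated macrophages, were near 0 at E17 and PN1 and stood at 26.7 and 113 FPKM at PN10. At PN28 they measured 0.0586 and 17.1 (changes -4.71 and -2.66), and at PN90 0.0159 and 13.1. The PN10 library was the highest of the 5 for both.

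Imprinted and fetal growth genes continued a decline already seen from E17 to PN10. Of 22 compared 7 were called lower and none higher (median -0.47), and their sum went from 6282 FPKM at E17 to 2416, 620, 250.4 and 202.8 at the later stages. H19, an imprinted noncoding RNA, measured 4795, 1668, 260, 33.8 and 27.5 FPKM (change -2.91). Igf2, the fetal insulin-like growth factor beside it, measured 249, 120, 48.9, 8.52 and 3.69 (-2.39). Each of them was lower in every library than in the one before. Plagl1, a zinc finger regulator of imprinted genes, gave -2.16, and the proteoglycan gene Gpc3 gave -1.65.

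Among 30 genes of fetal and developmental signalling 4 were called lower and 2 higher (median -0.38). The lower ones were the growth factors Ptn (12.3 to 1.32 FPKM, -2.52) and Mdk (-2.19), the Wnt-binding Sfrp2 (-1.70) and Fstl1 (164 to 65.6, -1.31). The higher ones were Igfbp3 (1.37) and Fgf2, basic fibroblast growth factor (1.13). Aldh1a2, the retinoic acid synthase of the epicardium, went from 16.4 to 2.12 (-2.48). In its list of 11 epicardial and mesothelial genes 1 was called higher and 1 lower (median -0.44), but 7 lower with a pseudocount of 0.1. The mesothelial surface genes Upk3b (0.556 and 0.0503 FPKM) and Msln (0.417 and 0.0410) were low at both ages and lower at PN28. Their part in the fall of Aldh1a2 was not tested. No gene of the list of 27 cardiac transcription factors was called: Nkx2-5 measured 8.198 and 10.2, and Gata4 39.7 and 24.4.

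Translation genes were called at 3.9%, against 5.86% of all genes, and those called belong to pairs of paralogs. Of 77 cytoplasmic ribosomal proteins and elongation factors 1 was called higher and 2 lower (median 0.05, or -0.25 with equal sums; 2 higher and 2 lower with all transcripts). Rpl3l, the ribosomal protein paralog of striated muscle, measured 0.181, 1.64, 16.07, 62.0 and 63.0 FPKM from E17 to PN90 (change 1.88). Its common relative Rpl3 measured 341, 292, 203, 96.5 and 87.5 (-1.06). Rpl3 was the higher of the pair in all 5 libraries, by less at each later stage. The elongation factor Eef1a1 went from 2340 to 965 (-1.28), and its muscle and neuronal counterpart Eef1a2 from 34.5 to 52.1, which was not called (0.58). Most of the Eef1a2 signal lies in transcripts that could not be matched to the gene, and with them it measured 190.1 and 403.1 and was called higher (1.08).

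Hormone, stress and clock genes supplied single calls. Rxrg, a retinoid receptor of muscle listed with the thyroid hormone genes, went from 11.2 to 35.5 FPKM (change 1.58). Hsd11b1, which reactivates glucocorticoids inside cells, measured 0.583, 0.160, 0.289, 8.64 and 18.8 (2.90). The metallothioneins Mt1 (31.2 to 132, 2.05) and Mt2 (1.92) bind zinc and respond to glucocorticoids. They were the called members of 25 stress and immediate early genes (8%, against 5.86% of all genes). Of 18 clock genes Nr1d1 was higher (1.19) and Per3 lower (-1.01), or 11.1%. The hour of collection is not labelled, and its part was not tested.

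Sex-linked genes differed between the libraries. Xist, the RNA that silences an X chromosome in females, measured 10.99, 7.75, 17.6, 0.0431 and 0.0349 FPKM from E17 to PN90 (change -4.16). The Y-linked Ddx3y measured 17.9, 25.8, 26.9, 72.6 and 71.4 (1.40), and Uty, Eif2s3y and Kdm5d gave 0.96, 0.83 and 0.93 without being called. The 3 younger libraries thus held RNA of both kinds, while in the 2 older ones Xist was near 0. The sex of the animals and their age cannot be told apart in any gene of this comparison, and in the isolated cells Xist and Ddx3y were both present at every age.

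The share of each isoform within its gene was compared by a rule of its own. Of 23597 isoforms of genes with at least 5 FPKM at both ages, 179 (0.759%) shifted by at least 20 percentage points, in 116 genes. Ttll1, a subunit of a tubulin polyglutamylase, gave Ttll1-201 as 89.7% of its FPKM at PN10 and 50.6% at PN28, and Ttll1-203 as 10.3% and 49.1%. The share of Ttll1-203 was 1.95% at E17, 2.91% at PN1 and 47.9% at PN90, so the PN28 and PN90 libraries were alike. Dcakd-203 of the kinase-like gene Dcakd went from 19.3% to 56.7%, after 1.92% at E17 and 2.20% at PN1, and stood at 57.5% at PN90.

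Phka2-201 of the liver phosphorylase kinase subunit went from 24.4% to 62.5%, and Sema3b-205 of a secreted semaphorin from 27.4% to 64.1%. Over E17, PN1 and PN90 the share of Phka2-201 was 31.2%, 43.6% and 45.2%, and that of Sema3b-205 was 42.4%, 30.4% and 44.6%. For both, PN10 was the lowest library and PN28 the highest. Shifts of Lpl, Rbm12, Klhl4 and Slf1 were among the 10 largest as well, but transcripts that could not be matched to these genes overlapped them with 45.1% or more of the gene's FPKM, so their shares are uncertain.

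Libraries other than those of PN10 and PN28 allow the called genes to be looked at again. The PN1 and PN90 ventricle libraries had entered the scaling and the filter on mean level, but not the change or its bounds. In the ventricle at PN90 against PN1, 304 of the 374 higher genes were called higher as well (81.3%, against 9.61% of all genes) and 4 lower. Of the 308 lower genes 250 were lower there too (81.2%, against 7.32%), and 6 were higher. These 2 ages lie outside the interval on both sides, so the difference includes it. The sex-linked genes differ the same way in both comparisons.

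In isolated cardiomyocytes the PN30 library was set against the mean of the 2 neonatal libraries. Of 345 higher genes measured there 294 were higher at PN30 (85.2%, against 22.9% of all genes) and 10 lower, and of 259 lower genes 181 were lower (69.9%, against 14.6%) and 5 higher. Art1 measured 0.996 and 0.841 FPKM in the neonatal cardiomyocytes and 173 at PN30. Myot measured 0.230 and 0.287 against 13.96, Trim54 3.72 and 2.32 against 70.1, and Oxct1 42.6 and 37.1 against 844. Tnni1 went the other way, from 760 and 672 to 0.638, as it did in the ventricle. Ccnb1 measured 10.6 and 11.7 against 1.08, and Mki67 12.9 and 15.2 against 2.01. The neonatal cardiomyocyte libraries also held RNA of other cells. Pecam1 stood at 206 and 239 FPKM there, against 69.6 at PN30. The endothelial genes Cdh5 and Kdr stood at 261 and 310 against 75.55, and at 88.5 and 93.5 against 55.25. The part of such RNA in the cardiomyocyte values was not tested.

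The cell comparison starts in the newborn and the ventricle comparison at PN10, and this bears on the atrial genes, several of which passed through low levels at PN10. In the isolated cardiomyocytes Nppa measured 996 and 228 FPKM in the 2 neonatal libraries and 93.2 at PN30, Myl4 880 and 230 against 13.2, and Sln 220 and 72.8 against 5.74. All 3 were called lower there. In the ventricle each was called higher from PN10 to PN28. There PN90 was below PN1 for Myl4 (122 against 343) and Sln (15.1 against 28.0). For Nppa the 2 were close (153 against 157). Clu and Kcnj3 of the same list were called higher in cardiomyocytes (1.27 and 1.91), as in the ventricle. For Nppa, Myl4, Sln and Kcnj3 the first neonatal library was at least 3 times the second, while Clu measured 56.3 and 43.9. Myl1 also differed between them, at 53.3 and 15.95 against 101 at PN30. Nppb was higher at PN30 (102 and 70.3 against 421), as in the ventricle.

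Fibroblasts shared the falls more than the rises. The neonatal fibroblast libraries held heart muscle RNA: Myl3 stood at 229 and 192 FPKM there, against 2089 and 2186 in the neonatal cardiomyocytes and 3.995 in fibroblasts of PN28, and Tnnt2 at 277 and 248 against 5.91 at PN28. Its part in the fibroblast values was not tested. Of 345 higher genes 90 were higher in PN28 than in neonatal fibroblasts (26.1%, against 9.3% of all genes) and 35 lower. Of 259 lower genes 164 were lower (63.3%, against 10.4%) and 6 higher. Ccnb1 went from 9.92 and 9.58 FPKM to 0.503, and Mki67 from 10.3 and 10.96 to 3.45. Col1a1 went from 499 and 559 to 125.0, and was 64.9 and 53.7 in neonatal cardiomyocytes.

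Immune genes were higher in the later libraries of both cell types. Cd74 measured 12.8 and 12.2 FPKM in neonatal cardiomyocytes, 73.8 at PN30, 8.83 and 18.4 in neonatal fibroblasts and 593 in fibroblasts of PN28. Lyz2 went from 33.6 and 66.9 to 447 in fibroblasts. C7 went from 1.63 and 1.55 to 45.7 there. Retnla was at or below 0.159 in all neonatal cells and stood at 81.5 in fibroblasts of PN28. The ventricle was likewise near 0 at PN1 and at 17.1 at PN28, and its fall was from the PN10 level, an age with no cell library. In cardiomyocytes of PN30 Retnla stood at 24.6, and C1qa measured 69.96 there and 89.15 in fibroblasts of PN28. Both of these libraries thus held RNA of macrophage genes, and the share of such RNA in their other values was not tested.

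The cell libraries also show where called genes were more abundant. Of the 345 higher genes 203 (58.8%) were at least 4 times as high in PN30 cardiomyocytes as in PN28 fibroblasts, against 16.3% of all genes, and 28 (8.12%) the reverse, against 9.07%. Of the 259 lower genes, 33 (12.7%) were at least 4 times as high in neonatal fibroblasts as in neonatal cardiomyocytes, against 1.51% of all genes, and 13 (5.02%) the reverse, against 2.92%.

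**Figure D4:**
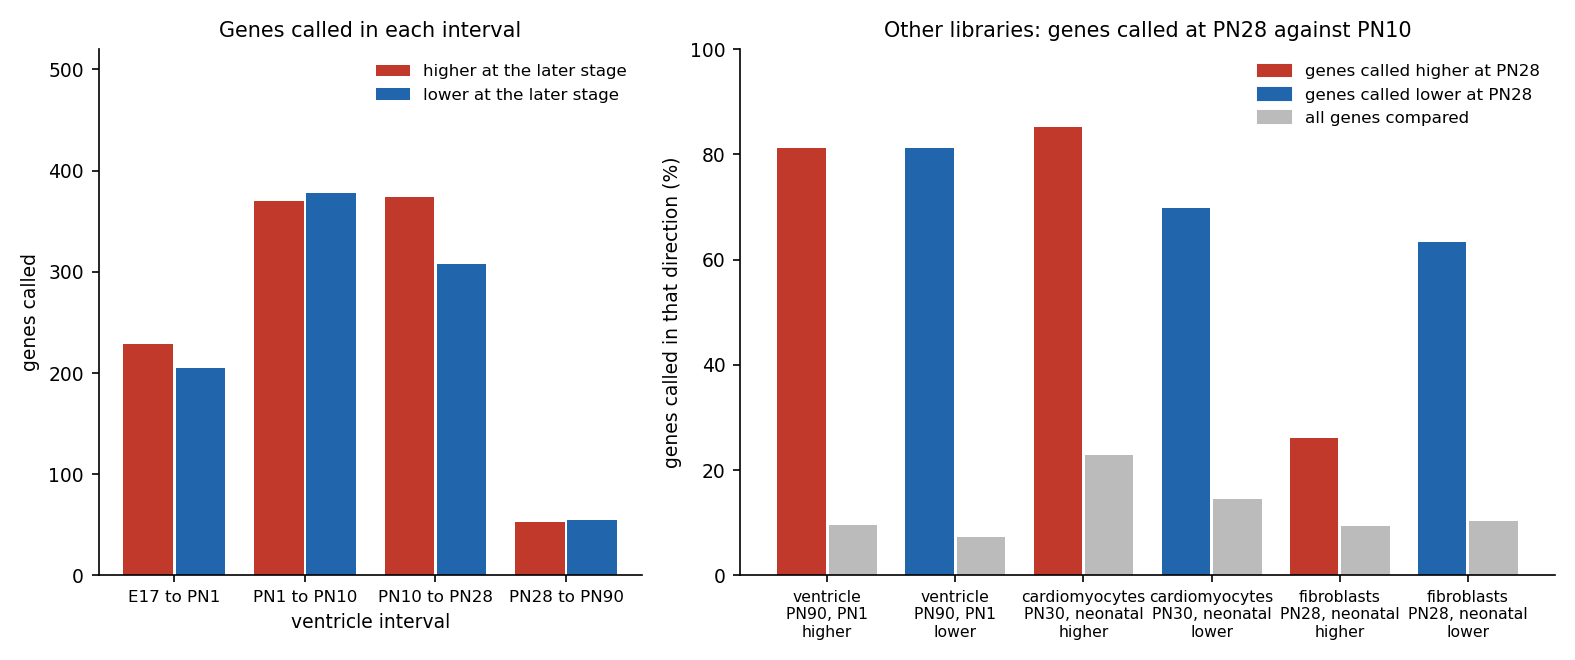
Left, bars give the number of genes called higher (red) and lower (blue) at the later stage of each ventricle interval, with 374 and 308 from PN10 to PN28 and 53 and 55 from PN28 to PN90. Right, bars give the percentage of the genes called higher (red) or lower (blue) at PN28 against PN10 that were called the same way in 3 other comparisons, beside the percentage of all genes (grey), from 26.1% for rises in fibroblasts to 85.2% for rises in cardiomyocytes.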

How the data were processed

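The series holds RNA-seq of 5 ventricle libraries, depleted of ribosomal RNA, and of 8 cell libraries made with TruSeq. The deposited values are FPKM per transcript with lower and upper 95% bounds, a status and a coverage value, per the file headers. The submitters' processing notes name TopHat2 2.0.5, Cufflinks 2.1.1 and, as genome build, mm9, the annotation release being not given in the sources used here. Fragment totals were not used here, so depth was read from the coverage signal deposited by the authors: median coverage per FPKM was 19.6 to 25.0 in the ventricle libraries, and the median half-width of the bounds was 4.55% to 5.06%.

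Transcript names were matched to GENCODE M21 (82379 of 94696, 87.0%). A gene's FPKM is the sum over its OK transcripts of at least 200 nucleotides, and its bounds are the sums of theirs, widened where needed to include the FPKM. The 64 genes with a HIDATA or FAIL transcript were left out. Ventricle libraries were scaled by the median ratio of their genes (factors 0.873 to 1.15), genes needed a mean of 1 FPKM over the 5 libraries, and the pseudocount was 1. PN90 against PN1 and cell libraries against the mean of 2 neonatal libraries used the same call; cell libraries were scaled among themselves, so their levels are not on the ventricle scale. An isoform was called at a shift of 20 percentage points. The call rule was tested on simulated data. Python 3.11.15, numpy 2.4.6, pandas 2.3.3 and matplotlib 3.10.9 were used.

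The genes, lists and comparisons were chosen with earlier results of these data known. Named are the 15 largest rises and falls, up to 5 called members of each list in each direction, isozyme pairs and cell type markers whatever their change, and the 10 largest isoform shifts; genes named beyond these were chosen after their values were seen. Promoters come from RefSeq on GRCm38.p6 and were searched on both strands. Alternatives were other scalings, pseudocounts, filters, bounds and transcript sets, and leaving out each neonatal library. A few genes that met the naming rule are not reported here.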

Additional observations from a re-analysis of the deposited data

Results flagged for a closer look

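In the isolated cells 16 of the named genes were called in opposite directions with age, in the cardiomyocytes (PN30 against neonatal) one way and in the fibroblasts (PN28 against neonatal) the other. The difference was not tested, since each later age has 1 library, and values below are the cardiomyocyte change minus the fibroblast change in log2(FPKM + 1). Among sarcomere and calcium store genes the difference was 7.57 for Myl3 (2.16 in cardiomyocytes, -5.40 in fibroblasts), 6.91 for Tnnt2 (1.65, -5.25), 6.92 for Tnni3 (2.49, -4.43), 6.09 for Actn2 (1.57, -4.52) and 5.14 for Hrc (4.05, -1.09). Among mitochondrial genes it was 7.73 for Ckmt2 (5.65, -2.09), 6.95 for Cox6a2 (2.83, -4.12), 6.09 for Cox7a1 (3.65, -2.43), 6.05 for Cox8b (2.74, -3.31) and 4.57 for Echs1 (2.83, -1.74). Among genes of pyruvate and lactate it was 5.28 for Ldhb (2.43, -2.85), 4.49 for Pdk2 (2.72, -1.77) and 3.05 for Pdk1 (1.70, -1.35), and for the peptide gene Nppb it was 4.22 (2.27, -1.95). In the later libraries all 14 of these were higher in cardiomyocytes than in fibroblasts. The neonatal fibroblast libraries held Actn2 at 27.4 and 23.7 FPKM against 0.159 at PN28; the part of such RNA in these values was not tested. The other pair went the opposite way: the metallothionein Mt2 gave -6.68 (-1.09, 5.59) and the glucose carrier Slc2a1 -3.44 (-1.88, 1.56).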

How the results depend on the processing

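With 1 library at each age no setting measures the spread between animals. The bounds held back 13 genes whose change reached the threshold. Coverage and the pseudocount of 1 limit calls of genes near 1 FPKM. No paired analysis was possible because each ventricle age had 1 library and the calls come from no test. No named gene reversed under any setting tried. Scaling to equal sums of gene FPKM without mitochondrially encoded genes gave 210 higher and 588 lower genes, 518 of them shared with the 682, against 320 and 319 on the deposited scale. A pseudocount of 0.1 gave 596 lower and 532 higher genes. Filters on low values, bounds in quadrature or ignored, genes with failed estimates kept and transcripts of any length gave counts within 1.5 times of these. Counting all transcripts, an alternative chosen after seeing the data, kept 647 of 682 calls. Of 170 named genes, 5 were no longer called on the deposited scale, 19 with equal sums and 2 with all transcripts, while Eef1a2 was called only with all transcripts. Isoform calls numbered 92 with a minimum gene level of 10 FPKM, 1120 with a shift of 10 points and 32 with 30 points. Of 630 counts of called list members under these settings 51 moved by over 1.5 times, 23 of them with equal sums. Leaving out either neonatal library kept 290 to 296 of the higher and 179 to 187 of the lower genes in cardiomyocytes, and 86 to 91 and 162 to 165 in fibroblasts.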
